A study of Homo sapiens with 14 samples.

Results

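Gene deserts are long stretches of the genome without protein-coding genes. Here a region of H3K4me2 was counted as lying in a desert if it was on chromosomes 1 to 22 and more than 100 kb from the hg38 RefSeq span of every protein-coding gene. Of the 54942 regions in the deposited count table, 5542 (10.1%) met this rule, and they lay in 945 gaps between protein-coding genes. The regions had been counted in MDA-MB-231, a single established human line of triple-negative breast cancer, in 3 ChIP-seq libraries from cells given the vehicle DMSO and 3 from cells given OICR-9429 dissolved in DMSO. OICR-9429 is a small molecule that binds WDR5 and antagonises it. Treatment lasted between 24 and 96 h, and which time each library had is not given in the sources used here. The libraries of each group are labelled as biological replicates, so the p-values below measure the spread between them. Chromatin of both groups had received 5% Drosophila chromatin as a spike-in before the antibody, but the counts carry no spike-in scaling, so every change below is relative to the other regions and not an absolute amount. An untreated ChIP library and the 7 input libraries of the series were not analysed here.

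H3K4me2, dimethylation of lysine 4 on histone H3, is laid down by the MLL/SET1 enzymes together with WDR5 and marks active or poised promoters and enhancers. Deserts are known for 2 kinds of content: distant enhancers of a gene at the edge, often a developmental transcription factor or a growth regulator such as MYC or SOX9, and the starts of long noncoding RNAs (lncRNAs). The name of a desert below is that of the protein-coding genes on its left and right, without any statement that these genes are its targets.

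The 5542 regions were 316 to 49483 bp wide with a median of 1042 bp, and 133 were at least 5 kb wide. Their median distance from the nearest protein-coding gene was 239 kb and the greatest 4242 kb. At the threshold, the nearest desert region (between CTSO and PDGFC, 100.029 kb from the latter) had 3.98 ± 0.501 normalised CPM (counts scaled to library size; SD, n = 3) with DMSO and 1.92 ± 0.496 with OICR-9429, and the nearest region left out (between LDB2 and QDPR, 99.986 kb from the latter) had 5.29 ± 0.243 and 3.10 ± 0.486. A RefSeq noncoding gene or pseudogene overlapped 2061 desert regions (37.2%), in 1934 cases a lncRNA. The annotated start of a lncRNA lay in 179 of them, which together held 204 starts, or 7.15% of the 2855 noncoding starts that RefSeq places in deserts. Antigen receptor gene segments, which were not counted as protein-coding here, overlapped 41 regions. Counts were above 0 in at least 1 library for all but 52 desert regions, and 21 more were too low to test, which left 5469 tested.

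Sequences are shown first for the miRNAs encoded within desert regions on which a value below turns. The miR-29 family is known to restrain collagens and other matrix genes, and miR-148a is a widely expressed miRNA. The mature sequences are those of RefSeq (GRCh38.p14), with the seed (bases 2 to 8) in capitals. The miR-29a and miR-29b 3′ arms come from 2 hairpins in the same desert region and share the seed AGCACCA.
hsa-miR-29a-3p: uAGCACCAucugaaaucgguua
hsa-miR-29b-3p: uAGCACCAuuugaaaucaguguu
hsa-miR-148a-3p: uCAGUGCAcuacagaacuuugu
hsa-miR-5197-5p: cAAUGGCAcaaacucauucuuga
hsa-miR-5197-3p: aAGAAGAGacugagucaucgaau

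The 204 lncRNA starts inside desert regions were each matched to a promoter window in RefSeq (GRCh38.p14), 250 bases before the start to 50 after it. Printed 5′ to 3′ on the strand of the gene, capitals mark matches on either strand to TGANTCA (AP-1), GGGCGG (GC box), GGAATG (TEAD), GGAAGT (ETS) and TGACGTCA (CREB). Neighbouring or overlapping matches run together. The first windows belong to lncRNAs whose region fell with OICR-9429.
LINC02873, chr11:130672706-130673005, plus strand: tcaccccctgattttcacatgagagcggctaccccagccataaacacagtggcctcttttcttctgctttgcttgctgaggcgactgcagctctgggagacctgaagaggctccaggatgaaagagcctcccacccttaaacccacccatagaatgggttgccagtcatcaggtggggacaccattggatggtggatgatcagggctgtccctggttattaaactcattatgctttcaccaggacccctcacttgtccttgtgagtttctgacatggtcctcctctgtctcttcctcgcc
LINC02676, chr10:8897739-8898038, plus strand: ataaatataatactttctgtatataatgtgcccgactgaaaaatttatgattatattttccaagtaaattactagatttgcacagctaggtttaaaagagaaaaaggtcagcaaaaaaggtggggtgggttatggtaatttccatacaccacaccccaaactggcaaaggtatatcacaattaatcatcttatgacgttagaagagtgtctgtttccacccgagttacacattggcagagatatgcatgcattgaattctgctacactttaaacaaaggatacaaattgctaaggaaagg
LINC02747, chr11:69479908-69480207, minus strand: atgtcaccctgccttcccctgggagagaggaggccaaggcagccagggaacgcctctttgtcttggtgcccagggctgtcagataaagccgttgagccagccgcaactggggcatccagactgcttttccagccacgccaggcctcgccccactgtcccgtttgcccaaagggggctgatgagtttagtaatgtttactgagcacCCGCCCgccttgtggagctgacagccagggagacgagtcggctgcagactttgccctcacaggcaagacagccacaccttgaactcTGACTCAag
The next belong to lncRNAs whose region rose with OICR-9429.
LINC01812, chr2:67825513-67825812, minus strand: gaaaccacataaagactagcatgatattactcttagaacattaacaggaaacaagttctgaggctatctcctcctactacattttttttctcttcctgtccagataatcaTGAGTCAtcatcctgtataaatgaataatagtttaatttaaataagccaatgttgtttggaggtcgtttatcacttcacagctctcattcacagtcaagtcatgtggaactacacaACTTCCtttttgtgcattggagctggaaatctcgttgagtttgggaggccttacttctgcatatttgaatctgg
LOC107985379, chr1:60280213-60280512, plus strand: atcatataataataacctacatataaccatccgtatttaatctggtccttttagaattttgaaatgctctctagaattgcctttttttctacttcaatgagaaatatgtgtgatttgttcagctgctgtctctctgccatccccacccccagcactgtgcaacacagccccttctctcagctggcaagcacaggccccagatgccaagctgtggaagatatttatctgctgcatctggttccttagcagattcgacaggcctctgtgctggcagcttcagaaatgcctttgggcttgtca
LINC00662, chr19:27793891-27794190, minus strand: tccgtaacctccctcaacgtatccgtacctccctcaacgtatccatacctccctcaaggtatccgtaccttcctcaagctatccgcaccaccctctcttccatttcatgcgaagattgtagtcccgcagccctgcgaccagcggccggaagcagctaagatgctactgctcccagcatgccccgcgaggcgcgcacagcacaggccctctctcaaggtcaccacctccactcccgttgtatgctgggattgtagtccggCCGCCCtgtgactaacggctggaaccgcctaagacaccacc
The last come from starts in the regions with the most counts.
LINC-PINT, chr7:130913261-130913560, minus strand: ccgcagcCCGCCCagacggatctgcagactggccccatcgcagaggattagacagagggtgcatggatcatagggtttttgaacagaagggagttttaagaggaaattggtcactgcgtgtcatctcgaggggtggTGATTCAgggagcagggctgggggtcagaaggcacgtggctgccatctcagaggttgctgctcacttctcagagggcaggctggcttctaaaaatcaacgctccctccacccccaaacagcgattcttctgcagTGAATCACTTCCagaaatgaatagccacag
MANCR, chr10:4678021-4678320, minus strand: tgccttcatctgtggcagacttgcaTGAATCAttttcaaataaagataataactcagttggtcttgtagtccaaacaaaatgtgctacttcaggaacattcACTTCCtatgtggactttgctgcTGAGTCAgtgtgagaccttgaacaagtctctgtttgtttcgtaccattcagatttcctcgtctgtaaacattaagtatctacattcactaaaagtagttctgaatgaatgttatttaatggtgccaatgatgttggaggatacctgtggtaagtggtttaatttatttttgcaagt
HSD52, chr1:59146758-59147057, minus strand: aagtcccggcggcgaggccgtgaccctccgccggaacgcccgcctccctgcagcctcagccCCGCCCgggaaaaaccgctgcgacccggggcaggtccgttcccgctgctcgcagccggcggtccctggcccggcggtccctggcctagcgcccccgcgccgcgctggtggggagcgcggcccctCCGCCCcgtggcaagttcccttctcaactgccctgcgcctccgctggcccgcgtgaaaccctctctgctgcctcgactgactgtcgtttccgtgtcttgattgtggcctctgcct
A TGANTCA match was present in 23.5% of the 204 windows, against 12.6% of the 2651 noncoding starts in deserts that lay outside these regions, 10.4% of all 12917 noncoding promoters and 7.71% of all 35116 promoters in the table. The GC box was found in 19.1% of the windows inside desert regions and in 8.07% of those outside, 25.5% of all noncoding promoters and 45.0% of all promoters. GGAAGT was found in 28.4% and 19.8% respectively, and in 22.8% of all promoters. GGAATG went the other way, with 13.7% inside desert regions, 17.5% outside and 14.0% of all promoters. TGACGTCA was rare, in 0.98% inside, 0.45% outside and 1.85% of all promoters. A window was called CpG-rich if its GC content was at least 50% and its observed to expected CpG ratio at least 0.6, which held for 19.1% inside desert regions, 4.60% of the desert starts outside them and 46.9% of all promoters. A match describes letters in these windows and is no evidence of a bound factor.

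Across the 6 libraries, 16483098 to 23509413 reads were counted in regions, of which 884594 to 1023365 fell in deserts. The gene-boundary regions of VIM, CD44, AXL, ZEB1, FOSL1 and CAV1, genes this mesenchymal-like line is known to use, had 71.4 to 559 mean normalised CPM. ESR1, PTPRC, ALB and NEUROD1 had no tested boundary region, PGR had 10.4 CPM, and the luminal and epithelial genes GATA3, FOXA1, ERBB3 and ESRP1 had 31.9, 82.9, 34.7 and 68.4. OICR-9429 replicate 1 had the most reads counted in regions and stood lowest in the share of desert counts, which is therefore given with and without it.

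Desert regions carried 5.87%, 6.03% and 5.39% of the counts on chromosomes 1 to 22 in DMSO replicates 1, 2 and 3, and 4.44%, 5.19% and 5.47% in OICR-9429 replicates 1, 2 and 3. The groups overlapped, since OICR-9429 replicate 3 lay above DMSO replicate 3. The means were 5.77% ± 0.333 (SD, n = 3) and 5.04% ± 0.534, a difference of -0.73 percentage points that did not pass the test (exact two-sided permutation test, p = 0.2, where 3 against 3 cannot go below 0.1). Without OICR-9429 replicate 1 the difference was -0.433 points (exact permutation p = 0.3). The log2 ratio of desert counts to counts between genes at 1 to 100 kb was -1.54, -1.54 and -1.60 with DMSO and -1.74, -1.59 and -1.52 with OICR-9429. This ratio does not depend on how libraries are scaled. It differed by -0.056 (exact permutation p = 0.7), and by 0.00501 without OICR-9429 replicate 1 (exact permutation p = 1), so a change of deserts against nearer intergenic regions was not detected.

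**Figure D1:**
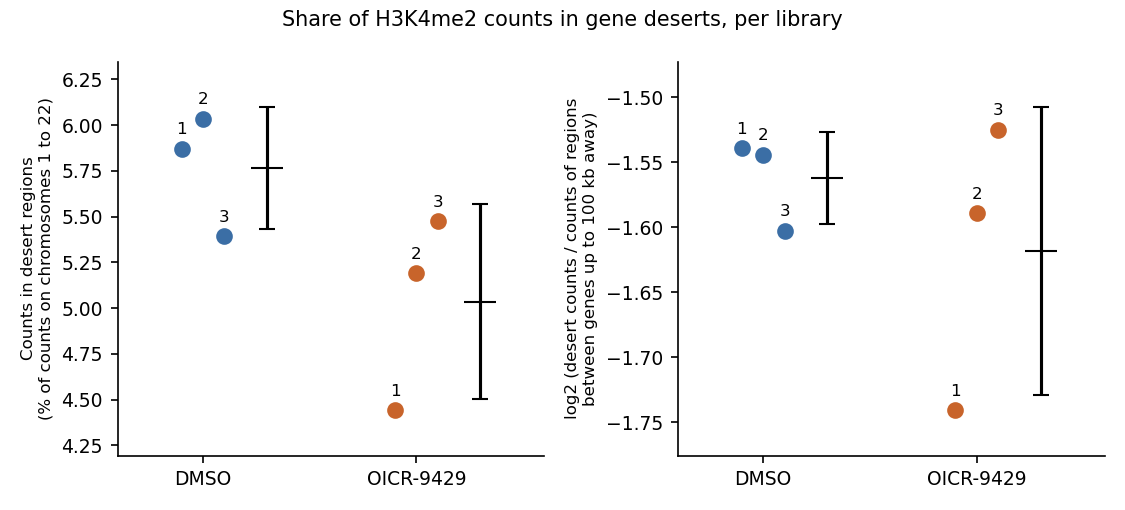
Percent of counts on chromosomes 1 to 22 that fell in desert regions (left) and log2 ratio of desert counts to counts of regions between genes at 1 to 100 kb (right), per library, with the replicate number above each point and the mean ± SD of 3 libraries beside it. The groups overlap in both panels, and OICR-9429 replicate 1 is lowest at 4.44% and -1.74.

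Single desert regions were weak, with a median of 6.08 normalised CPM (range 0.574 to 391), or a median of 111 reads per library. Per kb of width the median was 6.10 CPM, against 6.95 for regions between genes at up to 100 kb, 5.47 for regions inside genes and 9.23 for regions within 1 kb of a gene's end, called boundary regions here. With edgeR's quasi-likelihood test and Benjamini-Hochberg adjustment over all 51156 tested regions (threshold 0.05), 952 desert regions (17.4%) fell with OICR-9429 and 273 (4.99%) rose. Over all tested regions 14.0% fell and 17.0% rose. The normalised CPM of the 2 groups did not overlap in 1498 desert regions (27.4%) that were lower and 577 (10.6%) that were higher, where all tested regions had 21.5% and 24.8%. Without DMSO replicate 1 the counts were 553 lower and 37 higher, without DMSO replicate 2 they were 570 and 35, and the higher count was 119 on leaving out OICR-9429 replicate 2 and 148 on leaving out OICR-9429 replicate 3.

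With TMM scaling the share of falls was close to that of other regions away from gene ends, with 15.9% lower and 7.70% higher between genes at up to 100 kb and 18.6% lower and 7.19% higher inside genes. Boundary regions had 3.50% lower and 47.4% higher. With loess offsets (described below) the share of falls was 6.62% in deserts, 9.31% between genes and 12.2% inside genes, so the nearness of these shares holds for TMM scaling and not for loess offsets. The median log2 fold change of desert regions (OICR-9429 over DMSO) was -0.11, where that of all tested regions was 0.03. How libraries are scaled moved the split. Scaling by library totals gave 1611 lower and 52 higher (all regions 23.4% and 6.45%), DESeq2 size factors gave 1063 and 218 (all regions 15.2% and 14.0%), and loess offsets, which remove a trend with abundance within each library, gave 362 and 233 (all regions 8.79% and 5.36%). The desert median was below 0 under all 4 scalings, at -0.31 with library totals, -0.14 with size factors and -0.02 with loess offsets, beside all-region medians of -0.17, 0.00 and 0.02. Under all 4 scalings, 298 desert regions were called lower and 32 higher. No such count over all tested regions is given here, so whether this split is particular to deserts was not tested. The 4 scalings include library totals, with which 23.4% of all tested regions were lower and 6.45% higher.

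The median change differed with the strength of the region. Tested regions of the whole table were split into 10 equal classes (deciles) of mean abundance, and desert regions sat low, with 17.1% of them in decile 2 and 1.55% in decile 10. The median log2 fold change of desert regions was -0.51 in decile 1 and 0.21 in decile 10, and regions between genes at up to 100 kb followed nearly the same line. Weighted to the deciles that desert regions occupy, 18.7% of regions between genes at up to 100 kb and 21.2% of those inside genes were lower, against the 17.4% of deserts, and 5.71% and 5.71% were higher, against 4.99%. Boundary regions weighted in this way had 17.9% lower and 12.3% higher. With loess offsets the weighted shares that were lower were 6.62% in deserts, 8.43% between genes, 11.4% inside genes and 6.56% at boundaries. Width went with strength: regions under 500 bp had 220 lower and 14 higher of 833 (26.4% and 1.68%). Those of 5 kb or more had 6 lower and 18 higher of 133 (4.51% and 13.5%), a direction that flips with loess offsets, under which 34 of these wide regions were lower. All tested regions, of any width, had 14.0% lower and 17.0% higher with TMM scaling, so the share of rises in wide desert regions was not above that of all regions.

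**Figure D2:**
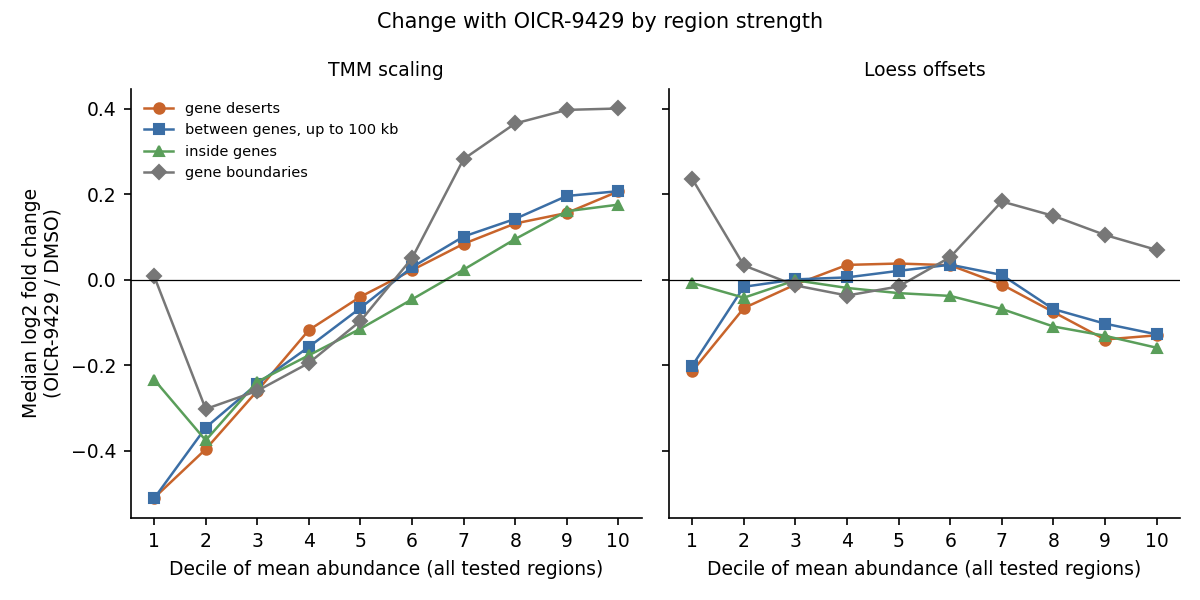
Median log2 fold change (OICR-9429 over DMSO) by decile of mean abundance for desert regions and 3 other classes of region, with TMM scaling (left) and loess offsets (right). With TMM, desert regions run from -0.51 in decile 1 to 0.21 in decile 10 beside the regions between genes at up to 100 kb. Boundary regions lie above both in deciles 1, 2 and 6 to 10.

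Falls made up a larger share of the regions beyond 500 kb than of those nearer to genes. Of tested regions 100 to 200 kb from a gene, 372 of 2240 (16.6%) fell and 6.47% rose, and at 200 to 500 kb 15.8% fell and 4.45% rose. At 500 to 1000 kb 21.5% fell and 2.91% rose, and beyond 1000 kb 61 of 267 (22.8%) fell and 3.75% rose. Median strength declined along the same bins, at 7.25, 6.17, 4.66 and 4.04 CPM, so distance and strength moved together. Within the 3 lowest deciles alone, the share that fell was 28.0%, 23.2%, 27.9% and 30.3% in the 4 distance bins. With loess offsets the shares that fell were 8.17%, 5.56%, 6.04% and 3.75%, with no increase over distance. The most distant tested regions lay on chromosome 22, 4242 and 3911 kb from OR11H1, and were not called (adjusted p = 0.468 and 0.631, edgeR). The first had 4.06 ± 0.246 CPM with DMSO and 3.59 ± 0.276 with OICR-9429, and the second 6.82 ± 1.19 and 6.25 ± 1.01. In the desert between PCDH7 and ARAP2, a region 2257 kb from ARAP2 (chr4:33747827-33748687) had 4.29, 3.71 and 3.69 CPM with DMSO and 2.16, 2.43 and 2.39 with OICR-9429, which did not overlap, and fell by 0.75 on the log2 scale (adjusted p = 0.0125, edgeR), a call that was lost with loess offsets (adjusted p = 0.117, edgeR) and when DMSO replicate 1 was left out.

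The regions that fell most, among those of at least median strength with groups that did not overlap, had DMSO means of 8.66 to 19.0 CPM, and the 8 named here were called lower in each of 13 alternative settings. The largest fall lay between BCL6, a transcriptional repressor, and LPP, a LIM-domain adhesion protein (chr3:187943414-187944469, 198 kb from BCL6). Its CPM was 9.18, 8.28 and 9.49 with DMSO and 3.52, 3.96 and 2.91 with OICR-9429. Every OICR-9429 library was thus below every DMSO library, and the log2 fold change was -1.37 ± 0.169 (SE, adjusted p = 0.000337, edgeR). A region between METTL15 and KCNA4 (chr11:28710354-28712371) had 13.7, 14.8 and 9.27 CPM with DMSO and 5.26, 6.45 and 4.46 with OICR-9429. DMSO replicate 3 was lower than the other two, and the log2 fold change was -1.22 ± 0.191 (adjusted p = 0.00105). A region between ATXN1, the ataxin-1 gene, and STMND1 (chr6:16961104-16962140) had 8.43, 10.4 and 7.21 CPM with DMSO and 4.04, 3.56 and 4.01 with OICR-9429. Its log2 fold change was -1.16 ± 0.177 (adjusted p = 0.00095).

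The other large falls ranged from 2.09-fold to 2.16-fold. The region between ZNF217, a zinc finger gene that is amplified in some breast cancers, and BCAS1 (chr20:53839489-53840684) went from 9.91 ± 1.01 to 4.57 ± 0.398 CPM (log2 fold change -1.11, adjusted p = 0.000638). The same desert holds a cluster of 8 regions whose summed CPM was 179 ± 9.77 with DMSO and 180 ± 13.0 with OICR-9429, with no region of the cluster called. The region between SLC35B3 and TFAP2A, which encodes the transcription factor AP-2 alpha, went from 10.1 ± 1.30 to 4.73 ± 0.258 CPM (chr6:8846549-8847301, log2 fold change -1.09). The region between RPS24 and the transcriptional coactivator gene ZMIZ1 was the strongest of the 8, with 19.0, 20.1 and 18.1 CPM with DMSO and 9.44, 9.73 and 7.69 with OICR-9429 (chr10:78804793-78807519, log2 fold change -1.08, adjusted p = 0.00039). Those between CLEC14A and SEC23A, within LINC00639, and between NR3C2, the mineralocorticoid receptor gene, and IQCM, within LINC02355, had log2 fold changes of -1.09 and -1.07.

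Rises were likewise picked among regions of at least median strength with groups that did not overlap. A large one was that of a region between C1orf87 and NFIA, a nuclear factor I gene (chr1:60280354-60281921). This region holds the start of LOC107985379 printed above. It had 7.51, 8.07 and 7.86 CPM with DMSO and 14.0, 14.7 and 17.8 with OICR-9429, a log2 fold change of 0.98 ± 0.143 (SE, adjusted p = 0.00074, edgeR). The strongest of these regions lay between CAPZA3 and PLEKHA5 (chr12:18997380-19000279), with 25.4, 23.8 and 25.5 CPM and then 48.0, 44.1 and 52.7 (log2 fold change 0.95, adjusted p = 0.000464). In both, the libraries of a group lay closer together than the groups did.

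Among the remaining rises, a region 203 kb from TWIST2, a transcription factor gene of mesenchymal cells, went from 5.13 ± 0.298 to 9.60 ± 0.713 CPM (log2 fold change 0.90). A region 462 kb from the kinase gene VRK2 went from 7.02 ± 1.32 to 13.1 ± 2.29 CPM (log2 fold change 0.90). Both regions named between CD83 and JARID2, which encodes a cofactor of the Polycomb complex PRC2, were dense, at 16.0 and 16.3 CPM per kb. The one 112 kb from JARID2 had 18.4, 16.6 and 17.2 CPM and then 30.6, 29.4 and 30.7, and the one 501 kb from it had 26.7, 27.6 and 26.9 and then 45.4, 44.5 and 49.6 (log2 fold changes 0.80 and 0.78). Of the 17 regions of that desert, 5 were called higher. The last, between the zinc finger gene ZNF92 and VKORC1L1, had 4.94, 3.93 and 6.13 CPM and then 11.1, 8.20 and 7.63 (log2 fold change 0.85, adjusted p = 0.00744), and was not called without DMSO replicate 2 (0.65, adjusted p = 0.064). The other 6 were called higher in all 13 alternative settings.

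**Figure D3:**
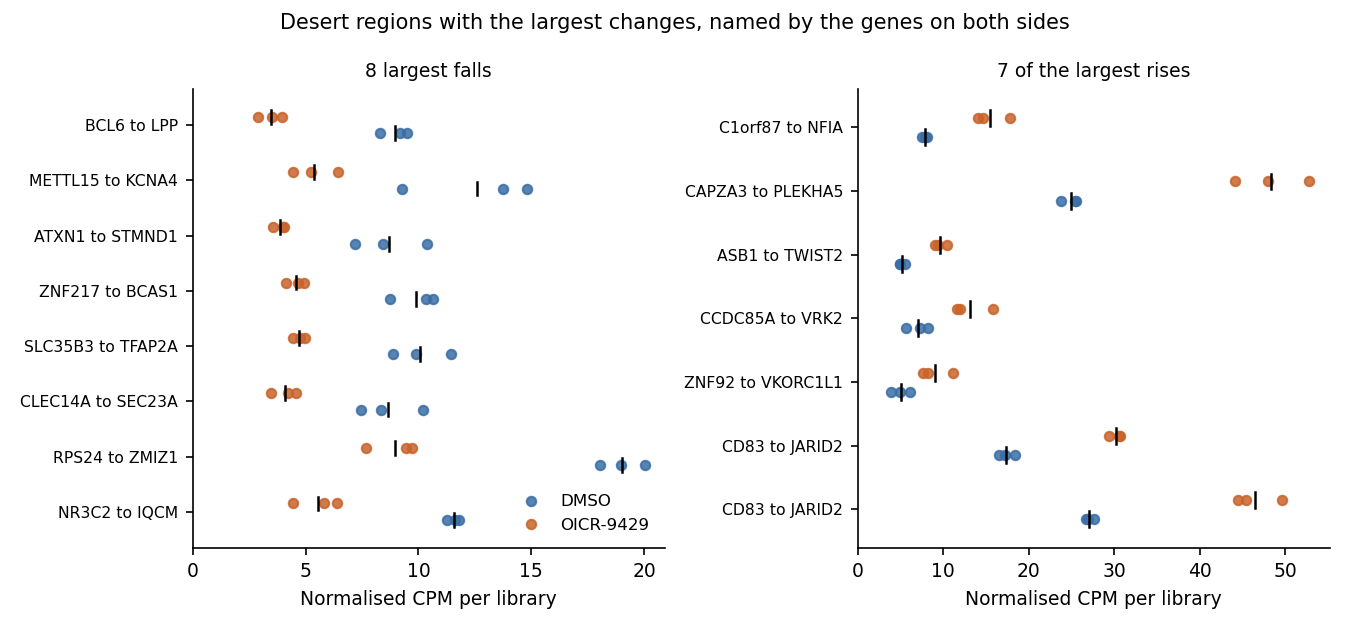
Normalised CPM of each library for the 8 desert regions with the largest falls (left) and 7 of those with the largest rises (right), named by the protein-coding genes on both sides, with the group mean as a bar. The groups do not overlap in any of the 15, because the rule that picked them required it. The falls shown start from 8.66 to 19.0 CPM with DMSO.

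The regions with the most counts changed little, and their calls depended on the scaling. The widest and strongest desert region covers 49483 bp between KLF14 and MKLN1 (chr7:130872492-130921974) and contains the starts of LINC-PINT, a lncRNA known to be induced by p53, and of LINC00513, together with MIR29A and MIR29B1. Its CPM was 353, 329 and 371 with DMSO and 431, 417 and 443 with OICR-9429, or 7.90 CPM per kb. The groups did not overlap and the log2 fold change was 0.29 ± 0.101 (adjusted p = 0.0369, edgeR), but the call held in 1 of 13 alternative settings, and with loess offsets the value was -0.04. The region of SCIRT and LINC03040 between VEGFA, the angiogenic growth factor gene, and MRPL14 (chr6:44000435-44012812) had 147, 148 and 151 CPM and then 200, 183 and 176 (log2 fold change 0.33, adjusted p = 0.0309), a call that held in 2 of 13 settings. The region between ABHD5 and TOPAZ1 (chr3:43994171-44006844) had 107, 102 and 144 CPM and then 178, 150 and 153 (log2 fold change 0.45, adjusted p = 0.0233) and kept its call in 10 of 13 settings, losing it with loess offsets (0.12) and when DMSO replicate 1 or 2 was left out.

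In the body of PVT1, a lncRNA gene downstream of MYC that is known to contain MYC enhancers, the regions 160 and 101 kb from MYC had 285 ± 10.0 and 160 ± 4.53 CPM with DMSO and 277 ± 6.26 and 172 ± 5.13 with OICR-9429 (adjusted p = 0.77 and 0.47, edgeR). The first was lower with loess offsets, at -0.38 (adjusted p = 0.0037, edgeR). The strongest region of the desert beyond SOX9, a transcription factor gene whose distant enhancers are well known, had 124, 129 and 115 CPM and then 134, 133 and 138 (log2 fold change 0.14, adjusted p = 0.343). Per kb the densest regions were small ones. A region between RASGEF1B and HNRNPD (chr4:82043694-82045217) had 19.4 CPM per kb, a region between NBPF11 and PPIAL4G that holds MIR5087 had 19.1, a region between LRFN2 and UNC5CL had 18.9, a region between SLC35B3 and TFAP2A had 18.4, and the start of LINC01948 near MAP3K1 had 17.7. The adjusted p of these 5 was 0.49, 0.0597, 0.172, 0.151 and 0.0756 (edgeR). Of the other miRNA regions, that of MIR148A had 32.4, 26.4 and 47.6 CPM and then 50.4, 43.7 and 42.8, which overlapped (adjusted p = 0.116). That of MIR5197, near the glucocorticoid receptor gene NR3C1, had 5.31, 4.78 and 3.85 CPM and then 2.77, 3.00 and 2.97, and fell by 0.67 on the log2 scale (adjusted p = 0.0178), a call that was lost with loess offsets (adjusted p = 0.139) and when DMSO replicate 1 or 2 was left out.

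Desert regions that hold a lncRNA start had a higher median strength than the other classes. Of the 177 tested, 15 fell and 29 rose (8.47% and 16.4%, beside 14.0% and 17.0% of all tested regions), their median log2 fold change was 0.09 and their median strength 14.2 CPM. Of the 3449 with no RefSeq gene, 620 fell and 141 rose, with a median of -0.13 and 5.71 CPM, and of the 1740 that overlap a lncRNA away from its start, 303 fell and 84 rose. The 103 that overlap another noncoding gene or pseudogene had 14 lower and 19 higher (13.6% and 18.4%), so starts were not the class with the largest share of rises. In the 4 highest abundance deciles, 23 of 82 regions with a start rose (28.0%), 51 of 522 with no gene (9.77%), 39 of 347 over a lncRNA away from its start (11.2%) and 12 of 24 over another noncoding gene. Regions outside deserts rose often at this strength too. Across deciles 7 to 10, from lowest to highest, 26.4% to 64.5% of boundary regions rose. Between genes at up to 100 kb 11.5% to 27.1% did, and inside genes 8.83% to 29.3%. With loess offsets the regions with a start had 14 lower and 7 higher (7.91% and 3.95%), where those with no gene had 6.26% and 3.97%, and in the 4 highest deciles 1 region with a start and 11 with no gene rose. The differences between these classes were not tested. Among the starts, the 31 regions with a CpG-rich window had a median of 0.31, 10 higher and 0 lower (edgeR; 1 lower at an unadjusted p under 0.05 and 0 by DESeq2), and the 146 without had 15 lower and 19 higher with a median of 0.03. The CpG-rich ones had a median of 27.5 CPM against 12.2, and 32.3% of them rose, beside 17.0% of all tested regions. The share of rises grew with strength, so the 17.0% is not matched to these stronger regions. In decile 8 (desert median 24.5 CPM) 11.7% of desert regions and 46.1% of boundary regions rose. Between genes at up to 100 kb 15.3% did, and inside genes 14.1%. With loess offsets the median log2 fold change of the CpG-rich ones was 0.12, but 0 of them were called higher and 1 lower. The 146 without then had 7 higher and 13 lower.

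The starts that fell most were chosen from all tested strengths. LINC02873, between ADAMTS15 and SNX19 (chr11:130672269-130673456), had 6.60, 8.86 and 6.34 CPM and then 3.10, 3.56 and 3.17 (log2 fold change -1.15, adjusted p = 0.0012, edgeR). LINC02676, 822 kb from GATA3 (chr10:8897067-8898257), had 7.73, 7.69 and 9.05 CPM and then 3.81, 4.87 and 3.43 (log2 fold change -1.01, adjusted p = 0.00188). LINC02747, 161 kb from the cyclin D1 gene CCND1 (chr11:69479601-69480120), had a weak region, with 2.20, 2.65 and 1.79 CPM and then 1.03, 0.849 and 1.03 (log2 fold change -1.18, adjusted p = 0.00614). The first and second held in all 13 alternative settings, and the third in all 12 in which it was tested. The windows printed for LINC02873 and LINC02676 contain none of the marked motifs, and that of LINC02747 contains an AP-1 and a GC box match. Of the motifs searched but not marked, LINC02873 has the E-box, LINC02676 the RUNX, and LINC02747 the GATA and CTCF letters.

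Of the starts that rose, LINC01812 between ETAA1 and C1D (chr2:67825434-67826021) had 3.27, 3.61 and 3.20 CPM and then 6.15, 6.79 and 7.37 (log2 fold change 1.00, adjusted p = 0.00164, edgeR). The shared region of LINC00662 and LINC02987, 1409 kb from UQCRFS1 on chromosome 19 (chr19:27791136-27796116), had 48.7, 40.4 and 51.1 CPM and then 77.3, 69.1 and 63.0 (log2 fold change 0.58, adjusted p = 0.00721), a call that was lost with loess offsets (0.25, adjusted p = 0.0568). MANCR, a mitosis-associated lncRNA known to be expressed in triple-negative breast cancer, lies with its start in a region 885 kb from KLF6 (chr10:4669773-4679407). This region had 101, 83.9 and 94.0 CPM and then 100, 124 and 142. The groups overlapped because OICR-9429 replicate 1 stayed at the DMSO level, and the log2 fold change of 0.39 (adjusted p = 0.0363) kept its call in 4 of 13 settings. The starts of HSD52, 355 kb from JUN, and of LNCATV and LINC02971, between IRF2BP2 and TOMM20, lay in regions as strong and nearly level with TMM scaling, at 110 ± 1.44 and 112 ± 1.38 CPM for the first and 111 ± 2.01 and 111 ± 2.74 for the second. Both were lower with loess offsets, at -0.32 (adjusted p = 0.0246, edgeR) and -0.34 (adjusted p = 0.0171).

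The changes of neighbouring regions were weakly related. Across 718 pairs of consecutive desert regions up to 5 kb apart, the log2 fold changes of the 2 regions had a Pearson r of 0.37, and this was 0.29 over 1378 pairs at 5 to 25 kb, 0.21 over 1442 pairs at 25 to 100 kb and 0.14 over 982 pairs farther apart. The pairs share the libraries and their scaling, and pairs are not independent replicates. Joined where no more than 12500 bp apart, the regions formed 4096 clusters, of which 914 held more than a single region and 52 held 5 or more. The 100 strongest clusters held 20.7% of the normalised counts of deserts.

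The strongest cluster was the one in PVT1, 8 regions over 117.2 kb. Its summed CPM was 657, 668 and 663 with DMSO and 636, 653 and 639 with OICR-9429. The groups did not overlap, although the log2 ratio of their means was only -0.04 (exact permutation p = 0.1, the smallest possible), and 3 of its regions were called lower. The LINC-PINT cluster of 7 regions had 526, 490 and 522 CPM and then 612, 614 and 628, with 2 regions called higher. The cluster at LNCATV had 295 ± 1.90 and 316 ± 6.68 CPM with no region called, and the largest cluster by number, 15 regions over 123.3 kb between ABHD5 and TOPAZ1, had 240 ± 2.55 and 251 ± 14.8 with 4 regions called lower and 1 higher. The MANCR cluster had 205 ± 13.4 and 240 ± 34.3 CPM, and the groups overlapped (exact permutation p = 0.2).

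Summed over each gap, so that a desert is tested once, 938 of the 945 deserts could be tested together with all other loci (gaps and merged gene spans, 18370 in all). With the libraries scaled over these loci, 287 deserts (30.6%) fell with OICR-9429 and 10 (1.07%) rose (edgeR, adjusted p under 0.05), where all loci had 15.6% and 10.2%. Sums of deserts are given on this scale and values of single regions and clusters on the scale over regions, so the 2 kinds are not comparable in CPM. The sums of regions in gaps nearer to genes had 27.6% lower and 1.85% higher, and merged gene spans 8.82% and 14.8%. The median log2 fold change was -0.25 for deserts, -0.21 for the nearer sums and 0.09 for gene spans. The scale set these counts: TMM over summed loci and TMM over single regions differ by 0.20 on the log2 scale, and with the latter 117 deserts were lower and 52 (5.54%) higher, where all loci had 6.86% and 31.0%, and the desert median was -0.05 beside 0.20 for all loci. All 117 were also lower on the scale over loci, and 78 deserts were lower on both scales and with loess offsets, which alone gave 196 lower and 13 higher (all loci 10.0% and 6.26%). Without DMSO replicate 1 the counts over loci were 118 lower and 3 higher, without DMSO replicate 2 they were 105 and 3, and when OICR-9429 replicate 2 was left out 168 and 3. Of the 179 deserts with 10 or more regions, 70 were lower and 0 higher (edgeR, also 0 at an unadjusted p under 0.05 and by DESeq2), and on the scale over regions 19 were lower and 7 higher.

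**Figure D4:**
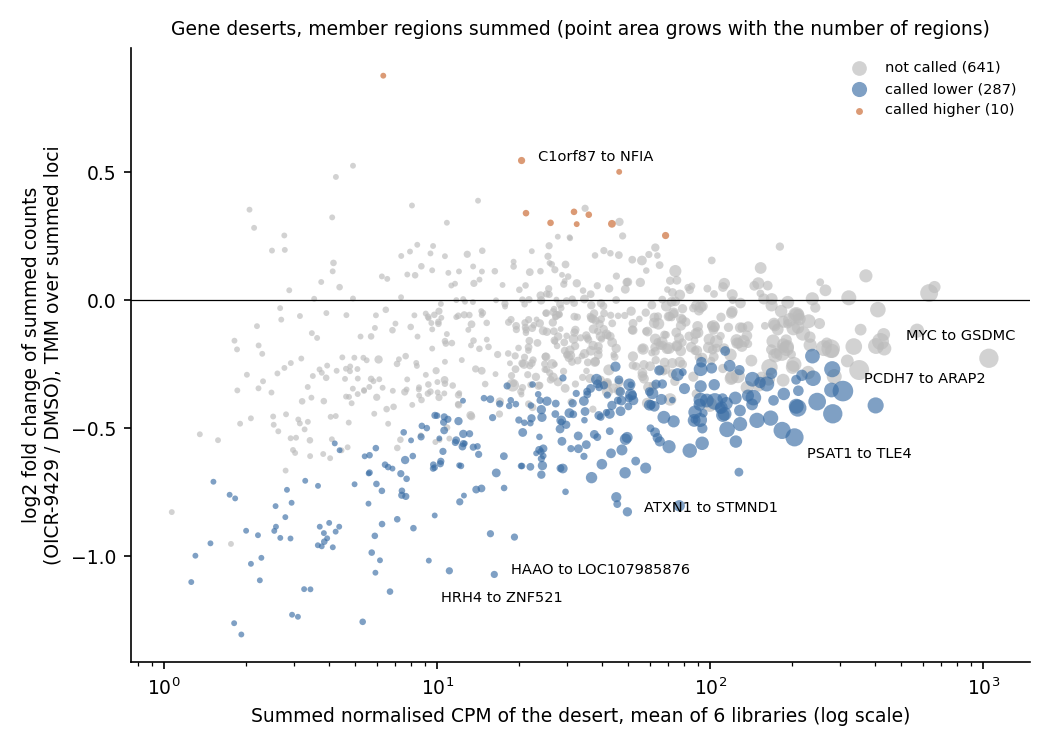
Log2 fold change of summed counts (OICR-9429 over DMSO, TMM over summed loci) against summed mean normalised CPM (log axis) for 938 deserts, with point area growing with the number of regions and colour showing the edgeR call. The 287 deserts called lower lie along the lower edge of the points, none of the deserts above 404 summed CPM is among them, and the 10 called higher have 4 regions or fewer. On the scale over single regions the points move up by a median of 0.20.

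The desert with the most regions was the 46 between PCDH7, a protocadherin gene, and ARAP2. Its summed CPM was 342, 347 and 342 with DMSO and 233, 280 and 294 with OICR-9429, and the groups did not overlap. The log2 fold change was -0.35 ± 0.0858 (adjusted p = 0.0163, edgeR), with 16 of 42 tested regions lower and 1 higher. The call was lost without DMSO replicate 1, without DMSO replicate 2 and on the scale over regions (-0.16, adjusted p = 0.137). The desert between EYS and ADGRB3 (40 regions) had 324 ± 14.4 and 238 ± 35.3 CPM and kept its call on the scale over regions (log2 fold change -0.44, adjusted p = 0.0131, and -0.25, adjusted p = 0.0445, edgeR), but not when DMSO replicate 1 or 2 was left out. The desert between PSAT1, a serine synthesis enzyme gene, and TLE4, a transcriptional corepressor gene, had 239, 249 and 235 CPM and then 143, 172 and 183. Its log2 fold change was -0.54 ± 0.0891 (adjusted p = 0.00474), 18 of its 35 regions were lower and 1 was higher, and the call held in all 14 alternative settings.

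The deserts of GATA3, MYC and CITED2 were among the largest and were not called. That between GATA3, the luminal transcription factor gene, and CELF2 (43 regions) had 384 ± 27.9 and 318 ± 43.3 CPM (log2 fold change -0.27, adjusted p = 0.0646, edgeR). That between MYC and GSDMC had the highest sum, at 1146, 1245 and 1004 CPM with DMSO and 897, 990 and 1014 with OICR-9429, which overlapped (log2 fold change -0.23, adjusted p = 0.079, and -0.02 on the scale over regions). Within it 7 regions were lower and 1 higher of 36 tested, and the lower ones lay 133 to 581 kb from MYC. That beyond CITED2 (37 regions) had 294 ± 21.4 and 258 ± 51.1 CPM (adjusted p = 0.262).

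**Figure D5:**
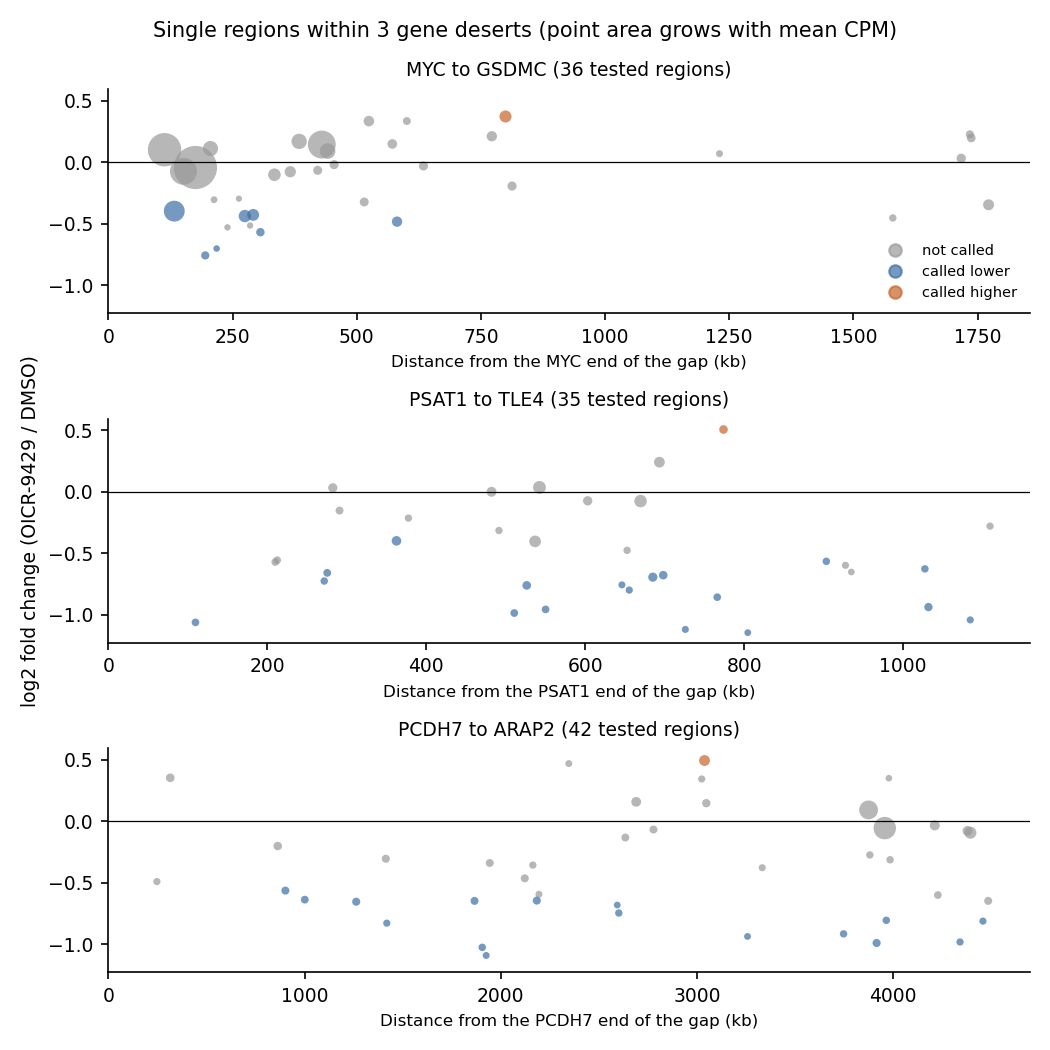
Log2 fold change (OICR-9429 over DMSO, TMM over regions) of each tested region against its distance in kb from the left end of the gap, in the deserts of MYC to GSDMC, PSAT1 to TLE4 and PCDH7 to ARAP2, with point area growing with mean CPM and colour showing the edgeR call. The strongest regions, in PVT1, sit near 0, while 18 of 35 regions in the PSAT1 to TLE4 desert are called lower.

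Of deserts with at least 3 regions, the largest falls were in small ones. Between HAAO and LOC107985876 all 3 regions were lower and the sum went from 21.1, 25.1 and 19.7 to 11.5, 10.5 and 9.22 CPM (log2 fold change -1.07, adjusted p = 0.00216, edgeR). Between the histamine receptor gene HRH4 and ZNF521, between the cannabinoid receptor gene CNR1 and RNGTT, and between LOC124901483 and the prolactin gene PRL, all 3 regions were lower too, with log2 fold changes of -1.06, -0.92 and -0.91. Between ATXN1 and STMND1, 5 of 7 regions were lower and the sum went from 64.3, 68.3 and 58.2 to 33.4, 37.8 and 36.5 CPM (log2 fold change -0.83, adjusted p = 0.0014). All 5 of these deserts kept the call in 14 of 14 settings. Rises among such deserts were the 3 regions between C1orf87 and NFIA (16.7, 18.0 and 15.0 to 22.7, 23.6 and 26.2 CPM, log2 fold change 0.54, adjusted p = 0.00863, held in 14 of 14), the 4 between ZNF92 and VKORC1L1 (0.30, adjusted p = 0.0372, held in 8) and the 3 between ZNF254 and UQCRFS1 (0.25, adjusted p = 0.045, held in 6). The last 2 were lost with loess offsets and on leaving out replicate 1 or 2 of either group, the desert between ZNF254 and UQCRFS1 also on leaving out DMSO replicate 3. Called higher were 2 of the 3 regions between C1orf87 and NFIA and 2 of the 4 between ZNF92 and VKORC1L1. Between ZNF254 and UQCRFS1 only 1 of the 3 was, that of LINC00662 (0.58), and the median region had a log2 fold change of -0.16.

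A list of 102 transcription factor, growth factor and developmental genes, many of them known for flanking deserts, was compared with the gaps. Of these, 68 lay beside a desert, giving 79 deserts with 694 regions. In 11 of the 79 (13.9%) the sum fell and in 0 it rose (edgeR; 2 higher at an unadjusted p under 0.05, 1 by DESeq2), while in the other 859 tested 276 (32.1%) fell and 10 rose. Over all loci 15.6% fell and 10.2% rose, so the share of falls in the 79 was close to that of all loci. The medians of the 79 and of the other deserts were -0.19 and -0.26. On the scale over regions, 3 of the 79 were lower and 4 higher (3.80% and 5.06%). The other deserts had 13.3% and 5.59% on that scale, and all loci 6.86% and 31.0%. With loess offsets 6 of the 79 were lower and 2 higher (7.59% and 2.53%), beside 22.1% and 1.28% of the other deserts and 10.0% and 6.26% of all loci. The differences between these sets were not tested. Single regions beside listed genes had 103 lower and 35 higher of 682 (15.1% and 5.13%), close to the 17.7% and 4.97% of the other desert regions. The desert between MYEOV and CCND1 fell, from 239 ± 13.3 to 195 ± 5.14 CPM (log2 fold change -0.29, adjusted p = 0.0137), a call lost on the scale over regions (adjusted p = 0.33) and with the replicate number as a block (adjusted p = 0.0567), and on leaving out DMSO replicate 2 or OICR-9429 replicate 2. Those between SOX9 and SLC39A11 (452 ± 45.5 and 412 ± 9.33 CPM), KLF4 and ACTL7B (417 ± 34.1 and 406 ± 54.9) and JUN and FGGY (344 ± 34.0 and 292 ± 15.2) had adjusted p of 0.219, 0.795 and 0.0565. The desert between SHH and RNF32 had 167 ± 12.0 and 193 ± 8.53 CPM (log2 fold change 0.21, adjusted p = 0.0579), with 3 of 5 regions higher, and was called on the scale over regions (adjusted p = 0.00737).

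Most gene ends beside deserts were not called lower, whichever way the desert was called. At 389 gene ends next to a desert called lower, 8 boundary regions fell, 185 rose and the median log2 fold change was 0.36. At 834 gene ends next to a desert that was not called, 15 fell, 477 rose and the median was 0.39, and at 11 gene ends next to a desert called higher, 8 rose and the median was 0.43. Over all boundary regions 47.4% rose and 3.50% fell, beside 47.6%, 57.2% and 72.7% that rose in these 3 sets, and the differences between the sets were not tested. Across all 1234 such pairs the desert's and the boundary's log2 fold changes had a Pearson r of 0.12, given as a description since both come from the same libraries. At MYC the boundary region rose by 0.60 on the log2 scale (adjusted p = 0.00652, edgeR), beside a desert sum that was not called. At CCND1 it rose by 0.45 (adjusted p = 0.017), beside a desert sum that fell on the scale over loci. On the scale over regions, which the boundary values use, that desert sum was not called (-0.09, adjusted p = 0.33, edgeR).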

How the data were processed

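The deposited table holds raw counts of reads per H3K4me2 region in 6 ChIP-seq libraries, made by the authors, with no normalisation. Of tools, the submitters' processing notes list featureCounts, Bowtie, DESeq2, MACS2 and deepTools, with hg38 and dm6 as builds and no roles. Values of 0 in all libraries (843 regions) stayed in the table. Region positions were compared with the RefSeq gene table (GRCh38.p14), leaving out genes listed on sequences outside the chromosomes. No genome was at hand, so region sequences are not shown. The members and gene lists were chosen with earlier results of these data known.

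Counts were tested with edgeR 4.0.16 (R 4.3.3: filterByExpr, TMM, robust quasi-likelihood test, Benjamini-Hochberg at 0.05) on the whole table, and again on counts summed per gap or merged gene span. Normalised CPM are counts over the TMM library size, set over regions for single regions and clusters and over loci for desert sums. The SE is the log2 fold change over the root of F. Values per library were compared with exact permutation tests over 3 against 3. Named regions were the 8 strongest, 5 densest, 8 largest falls and 8 largest rises (called, no overlap, at least the median CPM of tested desert regions), 5 farthest and 5 widest, the 6 deserts with most regions, up to 5 falls and rises of deserts with at least 3 regions, and the 5 strongest clusters. Of these, 1 rise is not reported here, nor is 1 of the marker genes. The lncRNA starts, the miRNA regions, the list of 102 genes' deserts with values and further clusters were named after values were seen. Replicate numbers were not taken as pairs of libraries, although 3 libraries per group cannot exclude that same-numbered ones were handled together. Counts were simulated with 100 regions or loci changed by each size and with the trend of the dispersion alone. The test recovered 13% of regions changed by 0.5 on the log2 scale and 88% of those changed by 1 (51156 regions). Of summed loci it recovered 67% and 96% (18370 loci). Far larger shares were called in the real data, so these values do not give the recovery there. Also tried were loess offsets (span 0.3), size factors of DESeq2, library totals, other filters and distances, the DESeq2 1.42.0 test, a replicate block and leaving out each library.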

Additional observations from a re-analysis of the deposited data

How the results depend on the processing

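The falls of desert regions (952 in the main analysis) numbered 1611 with library totals, 362 with loess offsets, 279 at an adjusted p under 0.01, 580 beyond 200 kb, and 553 to 977 when a library was left out. The rises (273) numbered 52 with library totals, 151 without a count filter, 118 at a mean count of at least 50, 39 at an adjusted p under 0.01, 429 beyond 50 kb, 128 beyond 200 kb, and 35 to 337 when a library was left out. Deserts called lower (287) numbered 117 with the library scale set over regions, which was chosen after seeing the data, 95 at an adjusted p under 0.01, 448 beyond 50 kb, 152 beyond 200 kb, and 105 to 366 when a library was left out. Deserts called higher (10) numbered 52 with the scale set over regions, 6 at a mean count of at least 50, 3 at an adjusted p under 0.01, 16 beyond 50 kb, 3 beyond 200 kb, and 3 to 12 when a library was left out. Fewer samples or regions enter some of these fits, and otherwise the cause was not tested. The share of counts in deserts kept its sign in every setting run, from -0.949 to -0.433 percentage points when a library was left out, and the ratio to nearer intergenic counts ranged from -0.103 to 0.00501, turning positive without OICR-9429 replicate 1. With the replicate number as a block, 168 desert regions and 3 deserts were higher and 145 deserts lower, and the sign-flip permutation p was 0.5 for the share and 0.75 for the ratio. Same-numbered libraries had correlations of -0.157, 0.182 and -0.194 of their deviations from the group means, so the numbers were not taken as pairs, and beside MYEOV to CCND1 the block changed the call of 2 deserts named by rule, ZNF92 to VKORC1L1 (0.29, adjusted p = 0.0752) and ZNF254 to UQCRFS1 (0.25, adjusted p = 0.0895). Keeping the genes listed off the chromosomes, also chosen after seeing the data, gave 5535 desert regions, of which 951 were lower and 272 higher. Single desert regions had a median of 111 reads per library, and the effect of other depths was not tested.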

Other observations

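Of the 10 deserts called higher, KCNJ12 to KCNJ18 held a single region and had a log2 fold change of 0.50 (adjusted p = 0.00338, edgeR). This call also held with loess offsets (adjusted p under 0.05, edgeR). KCNJ12 and KCNJ18 are near-identical potassium channel genes, and this value is uncertain where reads were shared with a copy.

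By chromosome, the share of tested desert regions called lower ranged from 7.41% on chromosome 16 (54 regions) to 24.0% on chromosome 18 (96 regions), leaving aside chromosome 19, which had 6 tested regions. The 52 desert regions with no read in any library are a part of the 843 such regions of the whole table.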
